A study of Mus musculus with 12 samples.

Results

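The smooth muscle contractile apparatus and its regulators were read as a set of 33 genes across the endothelial and medial layers of mouse carotid arteries, in Poldip2-/- mice and in littermate controls. The members are the rows of the deposited gene table whose name is on a fixed list of contractile, filament and regulator genes, and that list was drawn up with earlier results of these data known. Each of the 33 names was found in the table, which lists 35275 genes. By role, 9 members belong to the actin thin filament, 5 to the myosin thick filament, 4 to the control of myosin phosphorylation and 4 to transcription by SRF and its cofactors. The other 11 were grouped as filament anchorage. Most of these encode proteins of intermediate filaments, of dense bodies or with LIM domains, and Myom1 and Mustn1, which are of other kinds, were counted with them.

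RNA was sequenced to ask how whole-body loss of Poldip2, a gene for a multifunctional protein, affects gene expression in the arterial wall. Endothelial-enriched RNA was flushed out of the lumen with lysis reagent, and RNA of the medial layer came from everything left of the vessel, so that it holds the media together with the adventitia. All mice were 10 weeks old, of the C57BL/6 strain and fed standard chow. Poldip2-/- mice carried the Poldip2 allele without exon 4 in every tissue. That allele was made by crossing floxed mice with EIIa Cre, which acts in the early embryo, and the Cre was then removed by a backcross. The controls were littermates, and the labels do not say whether they carried 1 or no copy of the excised allele. The labels list 2 endothelial and 4 medial samples of each genotype, while the methods name 4 mice in each group. Abundance is given as 1 FPKM value per group (fragments per kilobase of a transcript, relative to all fragments sequenced). These values carry no replicate error, no test between groups was possible, and every difference below is a description of 4 group values. Columns of single samples were not used, because the labels do not tie them to genotypes, and the depth of the libraries was not computed from them.

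Smooth muscle shortens when bundles of the motor protein myosin II pull on actin filaments that are fixed to dense bodies in the cytoplasm and to plaques at the membrane. The switch is phosphorylation of the regulatory light chain of myosin: calcium and calmodulin turn on myosin light chain kinase, and a myosin phosphatase with a targeting subunit reverses it. Most genes of the apparatus are transcribed through serum response factor (SRF), which binds a short DNA element called the CArG box and works with myocardin or the related factors MKL1 and MKL2. In arteries these genes mark the differentiated smooth muscle cell of the media.

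Because many contractile genes are known targets of SRF, the 250 bases before the RefSeq start of each member (build GRCm38.p6) were searched for the CArG box. This is an element of 10 bases made of CC, 6 bases that are A or T, and GG. Windows were matched for 28 of the 33 members, Mkl1 and Mkl2 under their current names Mrtfa and Mrtfb. The other 5, Actg2, Tagln, Myh11, Myocd and Nexn, had no window and were not searched. A full box was present in 5 of these 28 (17.9%), against 1.62% of 27025 genes with such a window. When 1 of the 6 inner letters was allowed to be C or G, with CC and GG kept, the shares were 9 of 28 members (32.1%) and 9.78% of genes. The 4 windows below show a member of the motor (Myl9), SRF itself, the anchorage gene with the largest medial difference (Myom1) and the most abundant member of the medial layers (Acta2). Capitals mark full boxes and those with 1 such inner letter, and each sequence runs from 5′ to 3′ on the strand of the gene.
Acta2 (chr19:34255374-34255623, minus strand): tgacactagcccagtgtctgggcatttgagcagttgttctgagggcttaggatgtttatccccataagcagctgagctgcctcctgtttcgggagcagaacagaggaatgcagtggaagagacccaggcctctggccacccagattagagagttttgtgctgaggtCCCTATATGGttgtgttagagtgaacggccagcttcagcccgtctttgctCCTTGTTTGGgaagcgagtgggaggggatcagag
Myl9 (chr2:156775214-156775463, plus strand): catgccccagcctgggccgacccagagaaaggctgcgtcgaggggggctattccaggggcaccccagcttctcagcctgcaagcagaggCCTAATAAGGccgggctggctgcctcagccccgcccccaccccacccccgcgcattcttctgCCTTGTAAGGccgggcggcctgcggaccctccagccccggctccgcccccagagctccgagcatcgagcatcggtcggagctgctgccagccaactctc
Srf (chr17:46556163-46556412, minus strand): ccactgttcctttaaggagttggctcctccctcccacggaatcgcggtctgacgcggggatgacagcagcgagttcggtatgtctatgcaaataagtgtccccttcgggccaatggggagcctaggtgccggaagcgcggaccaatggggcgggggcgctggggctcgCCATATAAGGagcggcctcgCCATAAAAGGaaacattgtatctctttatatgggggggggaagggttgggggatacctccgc
Myom1 (chr17:71019307-71019556, plus strand): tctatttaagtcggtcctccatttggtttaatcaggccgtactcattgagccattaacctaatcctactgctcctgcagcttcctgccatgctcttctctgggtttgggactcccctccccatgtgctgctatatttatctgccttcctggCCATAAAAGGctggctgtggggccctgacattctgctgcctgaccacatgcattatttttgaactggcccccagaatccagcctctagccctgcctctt

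In Srf, 2 full boxes lie side by side, CCATATAAGG ending 73 bases before the start and CCATAAAAGG ending 53 bases before it. The box of Myom1 has the same letters as the second box of Srf and ends 90 bases before the start. Myl9, the regulatory light chain gene, has CCTAATAAGG and a second element, CCTTGTAAGG, which has 1 inner letter off. No full box lay in the window of Acta2, which held CCCTATATGG and CCTTGTTTGG, each with 1 inner letter off. The other full boxes were CCTTATATGG before Myl6 and CCTAAAATGG before Fhl1. Both of these genes, and Srf, showed less than a 2-fold difference between genotypes in the medial layer on the scale used below, and the median log2 ratio was 0.90 for the 5 members with a full box and 1.90 for the 23 without. Over the other genes included it was 0.07 for 127 with a full box and -0.14 for 9001 without. Members that had no window, Myh11 and Tagln among them, are in none of these medians. The 23 without a full box include Acta2, Mkl1, Synm and Pdlim3, which have a box with 1 inner letter off. Only the 250 bases before the start were searched, so boxes elsewhere in or near these genes were not seen. A match is a description of these letters and not a measured binding site.

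Differences between groups are given as folds of FPKM with nothing added, and as log2 ratios after 1 was added to both FPKM values, which understates the difference of weakly expressed genes. A gene was included where its FPKM averaged 1 or more over both groups, and it was counted as different when its log2 ratio was at least 1 in either direction, a 2-fold difference. Poldip2 itself, the deleted gene, was listed at 21.1 FPKM in control and 8.27 FPKM in Poldip2-/- endothelial layers, and at 35.9 and 10.3 FPKM in the medial layers. It was thus 2.55-fold and 3.48-fold lower. The layer of each group was read from the column names. In these layers, 10 endothelial markers summed to 3973 and 4174 FPKM (endothelial) and to 166 and 83.4 FPKM (medial), with Pecam1 the largest part (1887 and 2140 FPKM in the endothelial layers). In controls, 9 of the 10 were at least 2-fold lower in the medial layer, against 12.1% of 13354 genes included. The exception was Kdr (1.53 FPKM in the endothelial and 1.21 FPKM in the medial layer). Over all genes included, the median log2 ratio of Poldip2-/- to control was -0.17 in the medial and 0.05 in the endothelial layer.

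In the medial layer of Poldip2-/- mice, 27 of the 33 contractile genes were at least 2-fold higher than in controls and none was 2-fold lower. Over all 13082 genes included in that comparison, 7.22% were at least 2-fold higher and 14.3% at least 2-fold lower. The members' median log2 ratio was 1.90 (3.72-fold with 1 added to both FPKM values), and the values ran from 0.05 for Mkl2 to 3.32 for Myom1. All 33 lay above 0, and Mkl2 alone went below 0 (-0.32) when ratios were centred within classes of gene length. The 6 members under 2-fold were Myh9, Myl6, Srf, Mkl1, Mkl2 and Fhl1. Together, the 33 genes made up 2.43% of all medial FPKM in controls and 8.89% in Poldip2-/- mice, against 0.678% and 0.853% in the endothelial layers. In bulk samples such as these, a larger number of cells of a type and more RNA per cell cannot be told apart.

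**Figure D1:**
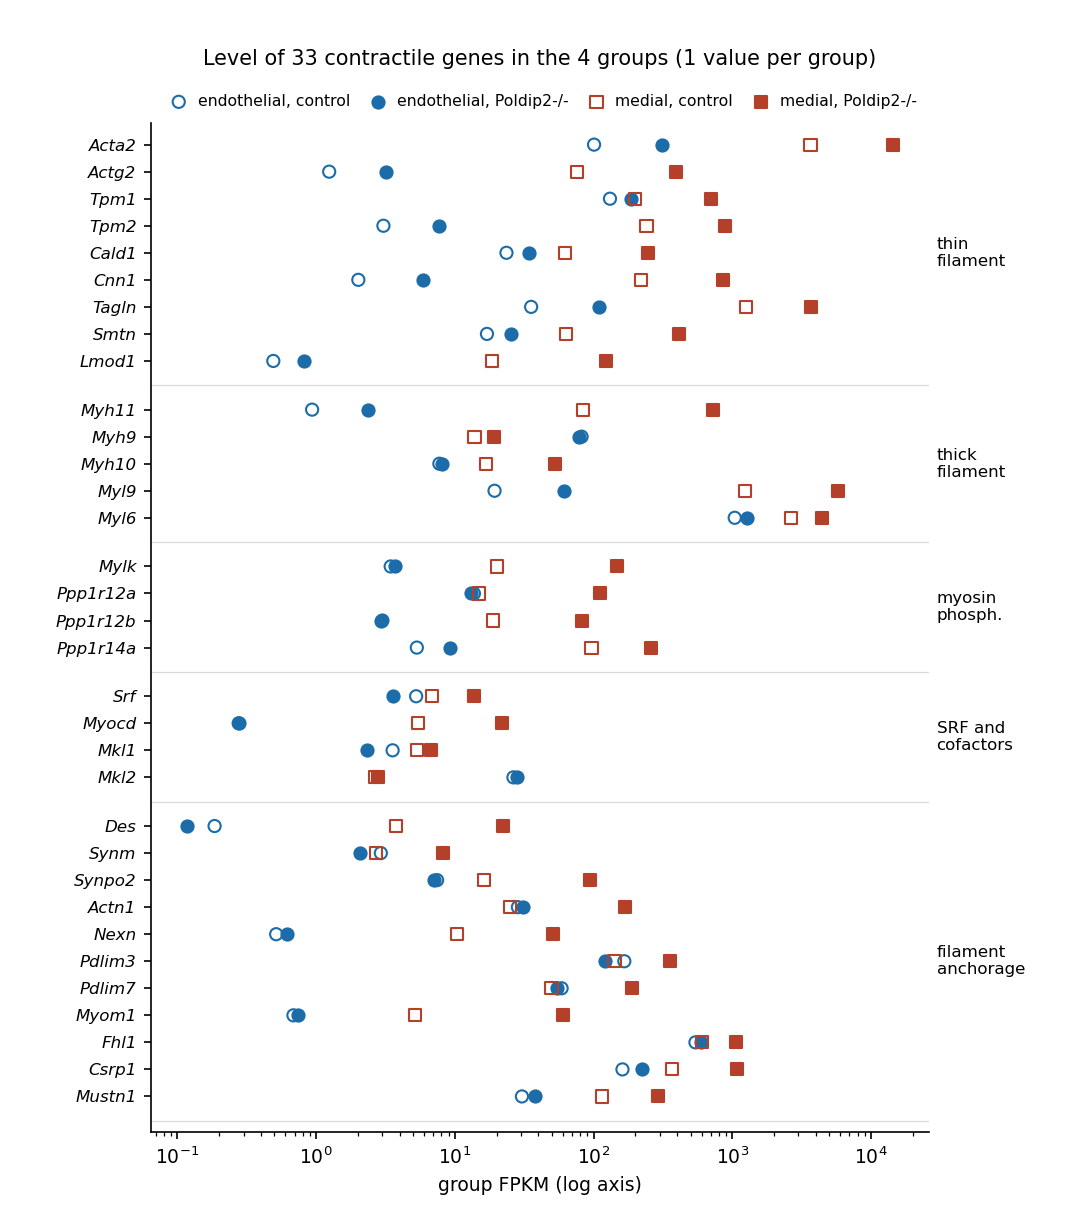
Group FPKM (log axis) of the 33 contractile genes, ordered by role, with 1 point for each of the 4 groups and no error bar because each group has a single value. In 31 rows the filled square (medial, Poldip2-/-) lies farthest to the right, and for Myh9 and Mkl2 the circles of the endothelial layer do.

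In the medial layers, thin filament genes had the highest summed level of the 5 roles, 5808 FPKM in control and 21811 FPKM in Poldip2-/- mice. All 9 of them were at least 2-fold higher in the Poldip2-/- medial layer, with a median log2 ratio of 1.96. Acta2 (ENSMUSG00000035783, chromosome 19, 34241090 to 34255336 of GRCm38) encodes the smooth muscle alpha actin. It was listed at 101 FPKM in control and 313 FPKM in Poldip2-/- endothelial layers, and at 3664 and 14524 FPKM in the medial layers. In the control medial layer it ranked 7th of all genes by FPKM, and in the Poldip2-/- medial layer it ranked 1st, 3.96-fold higher (log2 ratio 1.99). Actg2, the gamma actin of visceral smooth muscle, stood far lower, at 76.4 FPKM in control and 393 FPKM in Poldip2-/- medial layers. Acta2 and Actg2 have nearly the same coding sequence, so how reads were shared between them is uncertain.

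Several thin filament genes encode proteins that lie along actin and hold back or shape its contact with myosin. Among these, Tagln, which encodes the actin-binding protein transgelin, went from 1264 FPKM in control to 3675 FPKM in Poldip2-/- medial layers (2.91-fold), the smallest difference of the 9. Cnn1, the smooth muscle calponin, was listed at 219 and 854 FPKM, a 3.89-fold difference. Cald1, whose protein caldesmon inhibits the myosin ATPase on actin, was listed at 62.6 and 245 FPKM. The folds of Cnn1, Cald1 (3.92) and Acta2 (3.96) lay within 2% of each other. Cald1 overlaps the lincRNA gene Gm13861 on the opposite strand (7.59 and 13.7 FPKM), and whether the counting used the strand is not given in the sources used here.

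Tropomyosin, the coiled rod that lies along the actin filament, was represented by Tpm1 and Tpm2. Tpm1 stood at 199 FPKM in control and 700 FPKM in Poldip2-/- medial layers, and Tpm2 at 241 and 885 FPKM. Their folds, 3.52 and 3.67, were alike. The larger differences of the thin filament belonged to Smtn, which encodes the actin-associated protein smoothelin of contractile smooth muscle, and to Lmod1, a leiomodin that nucleates actin filaments. Smtn was listed at 63.0 and 412 FPKM (6.54-fold), and Lmod1 at 18.5 and 123 FPKM (6.66-fold).

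Thick filament genes split by isoform. Myh11 (ENSMUSG00000018830, chromosome 16, 14194527 to 14291408), the heavy chain of smooth muscle myosin, stood at 83.8 FPKM in control and 729 FPKM in Poldip2-/- medial layers, an 8.70-fold difference (log2 ratio 3.11) and the second largest of the set. Myh10, the nonmuscle heavy chain IIB, went from 16.9 to 52.6 FPKM (3.12-fold). The heavy chain IIA gene Myh9, which serves nonmuscle cells, was listed at 13.9 and 19.0 FPKM, only 1.37-fold apart. In the endothelial layers Myh9 stood at 82.0 and 79.1 FPKM, so that its medial level was 5.91-fold and 4.16-fold lower. Of the light chains, the regulatory chain gene Myl9 went from 1239 to 5752 FPKM in the medial layer (4.64-fold), and the essential chain gene Myl6, which smooth muscle and nonmuscle cells share, from 2634 to 4438 FPKM (1.69-fold).

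As shares of a family, the smooth muscle isoforms took a larger part in Poldip2-/- medial layers than in control ones. Myh11 made up 73.2% of the FPKM of the 3 heavy chains in control and 91.0% in Poldip2-/- medial layers, against 1.03% and 2.66% in the endothelial layers. Myh9 went the other way, with 12.1% and 2.38% of the heavy chain FPKM in the medial layers against 90.4% and 88.3% in the endothelial layers. Myl9 made up 62.7% and 92.9% of the medial FPKM of 3 regulatory light chains, the others being Myl12a and Myl12b. Tpm2 made up 26.3% and 48.0% of the 4 tropomyosins and Tpm1 21.7% and 38.0%. For actin the shift was smaller, since Acta2 was 58.0% of 6 actins in control and 71.8% in Poldip2-/- medial layers. The share of Actb was 22.4% and 21.0%, but its level was higher too. Actb was listed at 1417 and 4251 FPKM in the medial layers (3.00-fold) and at 612 and 1203 FPKM in the endothelial layers (1.97-fold). Actg1, also among the 6, was listed at 1152 and 1041 FPKM in the medial layers. All shares given here are ratios within a group, so they do not depend on how the groups were scaled to each other.

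**Figure D2:**
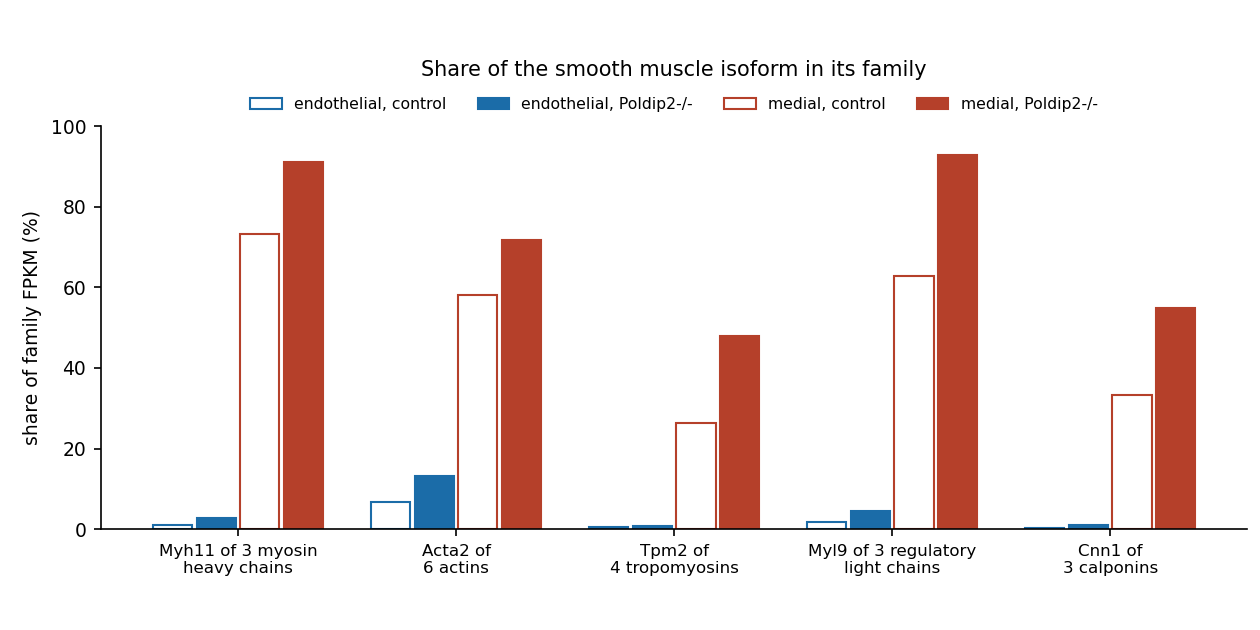
Share of the smooth muscle isoform in the summed FPKM of its family (percent), for 5 families, with 1 bar for each of the 4 groups and no error bar. In every family the medial Poldip2-/- bar is the tallest, from 48.0% (Tpm2) to 92.9% (Myl9), and the endothelial bars stay at or below 13.1%.

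All 4 genes that set the phosphorylation of myosin were at least 2-fold higher in the Poldip2-/- medial layer, with a median log2 ratio of 2.44. Mylk (ENSMUSG00000022836, chromosome 16, 34745210 to 35002420), the gene of myosin light chain kinase, was listed at 20.1 FPKM in control and 148 FPKM in Poldip2-/- medial layers (7.35-fold). Genes of the opposing phosphatase differed as well. Ppp1r12a, the targeting subunit MYPT1 of myosin phosphatase, went from 15.0 to 112 FPKM (7.47-fold), and its relative Ppp1r12b, or MYPT2, from 18.8 to 82.2 FPKM (4.37-fold). Ppp1r14a, which encodes the phosphatase inhibitor CPI-17, was listed at 96.7 and 261 FPKM (2.70-fold). Kinase and phosphatase subunit genes were thus higher side by side, at folds of 7.35 and 7.47 for Mylk and Ppp1r12a. In the endothelial layers neither Mylk (3.45 and 3.68 FPKM) nor Ppp1r12a (13.7 and 13.0 FPKM) differed by more than 7% between genotypes.

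The regulators of transcription had a median log2 ratio of 0.59 in the medial layer, the lowest of the 5 roles. Myocd (ENSMUSG00000020542, chromosome 11, 65176561 to 65269989) encodes myocardin, the SRF cofactor of smooth and cardiac muscle. It was listed at 5.43 FPKM in control and 22.0 FPKM in Poldip2-/- medial layers (4.05-fold), and at 0.276 FPKM in both endothelial layers. Srf was listed at 6.84 and 13.7 FPKM in the medial layers, a FPKM ratio of 2.00, which gave a log2 ratio of 0.90 after 1 was added. Mkl1 was listed at 5.36 and 6.72 FPKM (1.25-fold), and Mkl2 at 2.64 and 2.77 FPKM (1.05-fold). Of the 4, Myocd alone passed 2-fold, and Srf passed it in 4 of the 6 other ways of scaling tried, which are named with the limits. Mkl2 stood higher in the endothelial layers, at 26.4 and 27.9 FPKM, so that its medial level was 10.0-fold and 10.1-fold lower. An antisense gene within Mkl2, Gm15738, was listed at 2.03 and 0.551 FPKM in the medial layers, close to the level of Mkl2 in controls.

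Anchorage genes held the largest difference of the set, that of Myom1, and Fhl1 was the only one of them under 2-fold. Of 11, 10 were at least 2-fold higher in the Poldip2-/- medial layer, with a median log2 ratio of 1.90. Myom1 (ENSMUSG00000024049, chromosome 17, 71019521 to 71126856), which encodes myomesin, a protein best known from the M band of striated muscle, went from 5.17 to 60.6 FPKM (11.7-fold). The lincRNA gene Gm26561 (0.314 and 0.238 FPKM in the medial layers) overlaps Myom1 on the same strand over 107336 bp. Actn1 encodes the alpha-actinin of dense bodies and adhesions. It was listed at 24.8 FPKM in control and 169 FPKM in Poldip2-/- medial layers (6.80-fold), although the layers of controls were alike, with 28.5 FPKM in the endothelial layer. Synpo2, or myopodin, an actin-bundling protein of dense bodies and Z-discs, was listed at 16.1 and 94.1 FPKM (5.84-fold).

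The intermediate filament genes stood at low levels. Des, the gene of desmin, was listed at 3.76 FPKM in control and 22.1 FPKM in Poldip2-/- medial layers (5.88-fold). It overlaps Gm15179 on the opposite strand (0.919 and 0.0195 FPKM). Synm, whose protein synemin joins intermediate filaments to actin-based structures, was listed at 2.70 and 8.23 FPKM (3.04-fold), and it fell under 2-fold when ratios were centred by gene length (log2 0.94). Nexn encodes the actin-binding protein nexilin, and it went from 10.3 to 50.8 FPKM (4.93-fold).

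PDZ and LIM domain genes are the abundant part of this group. Pdlim7 was listed at 49.7 FPKM in control and 188 FPKM in Poldip2-/- medial layers (3.78-fold), and Pdlim3 at 141 and 358 FPKM (2.53-fold). Csrp1, a cysteine-rich LIM protein that binds alpha-actinin, went from 369 to 1082 FPKM (2.93-fold). Mustn1, a small nuclear protein known from musculoskeletal tissue, was listed at 114 and 292 FPKM (2.56-fold). Fhl1, which encodes a LIM protein of muscle, was listed at 607 and 1059 FPKM in the medial layers and at 542 and 593 FPKM in the endothelial layers. Its 1.74-fold medial difference was the smallest of the group.

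In the endothelial layer, 28 members had a mean of at least 1 FPKM. Of these, 5 were at least 2-fold higher in Poldip2-/- mice and none was 2-fold lower, while 0.434% of the 11514 genes included were higher and 1.44% lower. The 5 were Acta2 (3.11-fold), Myl9 (19.3 and 61.5 FPKM, 3.19-fold), Tagln (35.5 and 109 FPKM, 3.08-fold), Cnn1 (2.01 and 5.91 FPKM, 2.93-fold) and Tpm2 (3.05 and 7.63 FPKM, 2.50-fold). In controls, the endothelial FPKM of these 5 genes was between 0.918% (Cnn1) and 2.80% (Tagln) of the medial FPKM. Myh11 (0.935 and 2.38 FPKM) and Actg2 (1.24 and 3.16 FPKM) had FPKM ratios of 2.54 and 2.55 but stayed under 2-fold once 1 was added, and Tpm2 fell under 2-fold (log2 0.95) when ratios were centred by gene length. The members' median log2 ratio was 0.21.

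Genes with an endothelial level near or above the medial one showed no such difference between endothelial layers. Actn1 (28.5 and 30.8 FPKM), Pdlim7 (58.8 and 54.4 FPKM), Fhl1, Myh9, Mkl2 and Ppp1r12a had FPKM ratios between 0.926 and 1.09. Synm (2.93 and 2.06 FPKM) and Pdlim3, also of this kind, were lower, with ratios of 0.704 and 0.727. A higher medial level did not by itself go with a difference between endothelial layers. Mylk and Ppp1r12b, 5.83-fold and 6.27-fold higher in the medial layer of controls, had endothelial ratios of 1.07 and 0.979. Tpm1, only 1.51-fold higher in the medial layer of controls, had a ratio of 1.42. The lowest log2 ratios were those of Mkl1 (3.56 and 2.32 FPKM, 1.54-fold lower), Pdlim3 (167 and 121 FPKM, 1.38-fold lower) and Srf (5.26 and 3.60 FPKM, 1.46-fold lower). In all, 19 of the 28 members were above 0 and 9 below, and Myh9, Ppp1r12b and Synpo2, which lay within 0.08 of 0, turned above it when centred by gene length. The 5 members under the minimum were Lmod1, Myocd, Des, Nexn and Myom1. Des rested on few reads there, with means of 11.0 and 6.99 in the counts that the authors scaled by DESeq2.

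**Figure D3:**
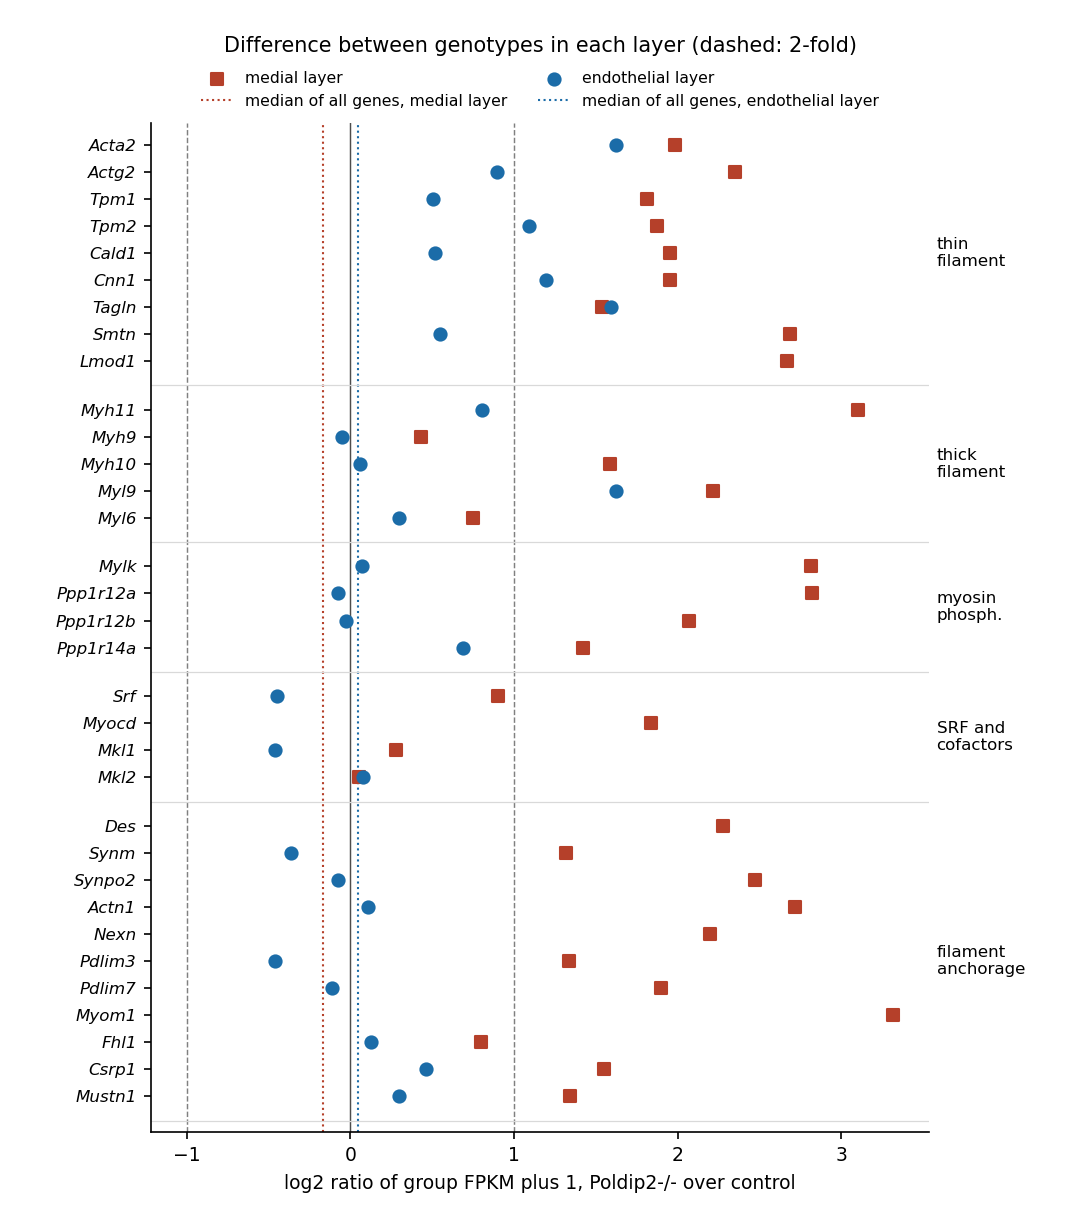
Log2 ratio of group FPKM plus 1, Poldip2-/- over control, for the medial layer (squares, 33 genes) and the endothelial layer (circles, 28 genes with a mean of at least 1 FPKM). Dashed lines mark 2-fold and dotted lines the median of all genes included, -0.17 and 0.05. The squares lie to the right of the circles in every row with both except Tagln and Mkl2.

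Both comparisons between layers show where the set is expressed. In controls, 22 of 33 members were at least 2-fold higher in the medial layer and 2 were lower (Myh9 and Mkl2), with a median log2 ratio of 1.83. Over all 13354 genes included, 20.2% were higher and 12.1% lower. In Poldip2-/- mice, 30 members were higher and the same 2 lower, with a median of 3.57, against 14.1% and 13.3% of 12140 genes. Of the 22 members called higher in controls, 17 stayed past 2-fold in all 6 other ways of scaling. Myh10, Synpo2 and Csrp1 went under it in 4 of the 6, Myl6 in 3 and Cald1 in 2. All 30 called in Poldip2-/- mice stayed past it. In the latter, Fhl1 was the member in between (1.79-fold higher in the medial layer). By rank among all genes, 5 members in control and 10 in Poldip2-/- medial layers were among the first 100, and 2 in each endothelial layer (Myl6 and Fhl1).

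Layer contrasts differed in size by member. In controls the medial level of Cnn1 was 109-fold the endothelial one, that of Myh11 89.6-fold and that of Tpm2 78.9-fold. These genes can be set against Tpm1 (1.51-fold) and Ppp1r12a (1.09-fold), which both layers of controls held at like levels. Members near 0 in controls do not have a fixed direction. Ppp1r12a, Srf and Fhl1 went below 0 in the control comparison under some of the other scalings, and Synm went above it. In Poldip2-/- mice, Ppp1r12a was 8.62-fold, Actn1 5.48-fold and Tpm1 3.75-fold higher in the medial layer.

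The log2 ratio between genotypes was larger in the medial layer for 26 of the 28 members included in both, with a median difference of 1.33 and a range from -0.06 to 2.89. Over the 10920 genes included in both layers, the median difference was -0.18. Ppp1r12a (2.89), Mylk (2.74), Actn1 (2.61) and Synpo2 (2.55) had the largest differences, and their endothelial FPKM ratios lay between 0.942 and 1.08. Tagln (-0.06) and Mkl2 (-0.02) had none, Tagln because both layers differed by about the same fold and Mkl2 because neither did. Acta2 (0.36), Myl6 (0.45), Myh9 (0.48) and Myl9 (0.59) were also near Tagln. These differences were not tested, since the 4 group values leave no replicate error.

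Gene length as deposited moved with the genotype ratio in the medial layer. This length is shorter than the span of a member on the chromosome. Ppp1r12b, for example, has a length of 8840 bp and lies at 134754658 to 134955942 of chromosome 1. Over all genes included, the median log2 ratio was -0.73 for 1709 genes up to 1000 bp, -0.15 for 4986 genes of over 2000 to 4000 bp and 0.43 for 493 genes over 8000 bp. Across genes, the log2 ratio and log10 length had a Pearson r of 0.40 and a Spearman rho of 0.36 (n = 13082), as a description of genes that share the same libraries. Across the 33 members, r was 0.12 and rho 0.11. Short and long members alike lay above the median of their length class, from Ppp1r14a (531 bp, log2 1.42) and Myl9 (1128 bp, 2.21) to Ppp1r12b (8840 bp, 2.07), with the exception of Mkl2 (8295 bp, 0.05). After centring within 20 classes of gene length, the members' median was 1.99 and 27 stayed at least 2-fold higher, with Myl6 (1.41) in place of Synm. The part of length in these results was not tested further.

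**Figure D4:**
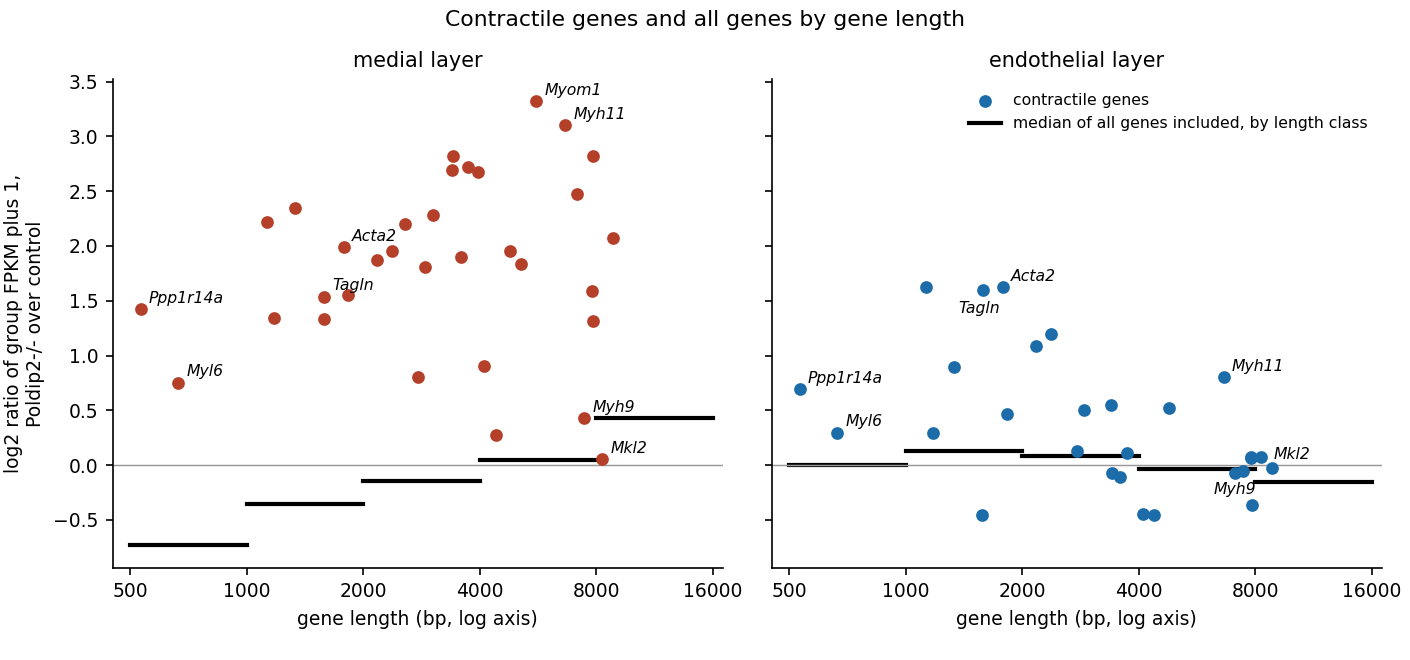
Log2 ratio of group FPKM plus 1, Poldip2-/- over control, against gene length (bp, log axis), for contractile genes (points) in the medial and the endothelial layer. Gene length is the deposited value and not the span on the chromosome. Black bars give the median of all genes included in each length class, which goes from -0.73 to 0.43 in the medial layer. All points of the medial panel except Mkl2 lie above the bar of their class.

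Related genes of the same families and pathways, listed alongside the members, had medians between 0.64 and 0.86 in the medial layer. Over all genes included in that layer, 7.22% were at least 2-fold higher and 14.3% at least 2-fold lower. Of 23 partner isoforms (nonmuscle and striated forms and relatives of the members), 9 were at least 2-fold higher and 3 lower in the Poldip2-/- medial layer, with a median log2 ratio of 0.72. Those with the largest ratios were the intermediate filament gene Nes (3.40 and 22.8 FPKM), the PDZ and LIM gene Pdlim1 (51.7 and 163 FPKM) and the alpha-actinin gene Actn4 (173 and 528 FPKM). Of 21 further genes of myosin phosphorylation and its upstream signals, 6 were higher and 2 lower (median 0.86). They included Rgs5, a regulator of G protein signalling (3.03 and 36.4 FPKM), and the kinase genes Mylk2 (0.589 and 12.1 FPKM) and Mylk4 (3.22 and 25.4 FPKM). Of 18 partners of SRF, 5 were higher and 1 lower (median 0.64), among them Tead3 (2.90 and 13.5 FPKM), Mef2d (8.72 and 28.3 FPKM) and Mef2c (7.05 and 22.6 FPKM). In the endothelial layer the medians of these lists were 0.12, -0.02 and -0.03, no gene of them was 2-fold higher, and 1, the SRF partner Klf4 (69.7 and 32.0 FPKM), was at least 2-fold lower. The shares over all genes included there were 0.434% higher and 1.44% lower.

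Lists of markers, named by cell type, moved with genotype in the medial layer. Of 10 fibroblast markers, 9 were at least 2-fold lower in Poldip2-/- mice and none higher, against 14.3% and 7.22% of all genes included. Their summed level was 12459 FPKM in control and 4279 FPKM in Poldip2-/- medial layers (Dpt 820 and 106 FPKM, Clec3b 773 and 178 FPKM). Leukocyte markers summed to 3683 and 849 FPKM, with 8 of 9 included genes lower (Lyz2 2500 and 461 FPKM, Tyrobp 278 and 56.6 FPKM). Fat cell markers summed to 1060 and 364 FPKM, with 6 of 8 lower (Retn and Adipoq among them) and 1 higher. All 9 endothelial markers included were below 0, and 4 of them were at least 2-fold lower (Icam2 and Tek among them). Pericyte markers summed to 194 and 281 FPKM, with 4 of 7 higher and 1 lower (Cspg4 4.86 and 76.0 FPKM). Rgs5 is on this list and also among the genes of myosin phosphorylation above. Whether the pericyte list marks cells other than smooth muscle here was not tested. Skeletal muscle markers were near 0, summing to 10.0 and 5.52 FPKM over 10 genes, with 1 of them listed at 0 in the Poldip2-/- medial layer. Cardiac muscle markers summed to 8.47 and 13.5 FPKM over 8 genes. Of these sums, 3.81 and 11.2 FPKM belonged to Actc1, an actin gene of nearly the same sequence as Acta2.

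The 5 reference genes of the RT-qPCR assays stood between 0.35 and 0.95 log2 units lower in the Poldip2-/- medial layer (median -0.60), and relative to them the contractile genes stood higher still, with a median log2 ratio of 2.54. Fewer fibroblasts, leukocytes and fat cells per sample, and less of their RNA in each cell, cannot be told apart from these values. The part of these cells in the contractile result was not tested. In the endothelial layer, fibroblast markers were also lower (8 of 10 at least 2-fold, against 1.44% of all genes included). Their summed level was 1528 and 913 FPKM. Leukocyte markers summed to 211 and 236 FPKM there, with Lyz2 lower in Poldip2-/- mice (83.9 and 42.5 FPKM) and Cd74, which is named after its values were seen, higher (100.2 and 168 FPKM). Fat cell markers summed to 29.3 and 41.4 FPKM.

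**Figure D5:**
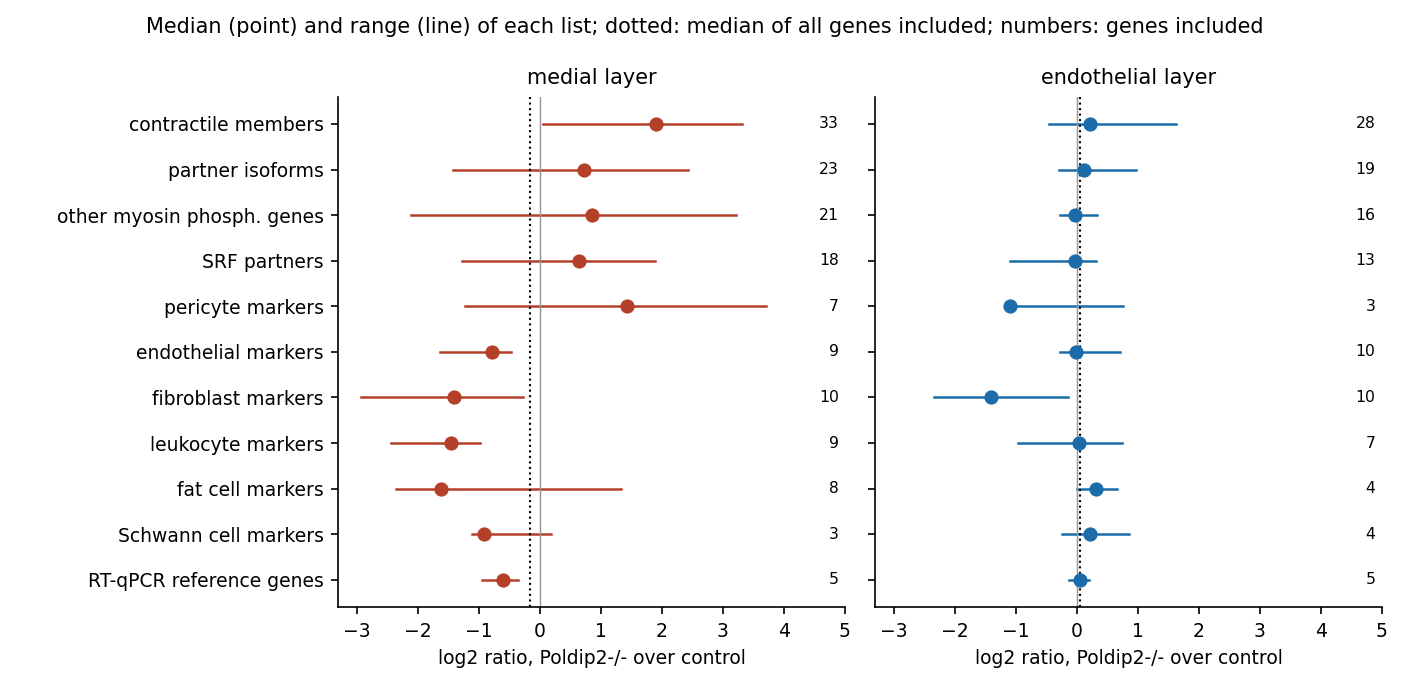
Median (point) and range (line) of the log2 ratio of Poldip2-/- to control for the contractile genes, related gene lists and cell type markers in the medial and the endothelial layer, with the number of genes included beside each line. Contractile genes have the highest median of the medial panel (1.90), followed by the pericyte markers (1.42), and the fat cell markers the lowest (-1.62).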

How the data were processed

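Poly-A RNA from the endothelial and medial layers was sequenced from both ends. Per the paper's methods, the authors aligned reads to mm9 with TopHat on a Bowtie index. They deposited abundance as FPKM, with 1 value for each of 4 groups, and how replicates were combined is not stated. The submitters' processing notes also list HTSeq 0.6.1, STAR 2.5, edgeR 3.16.5 and DESeq2. The deposited group mean counts, a score without a fixed unit that the authors scaled with DESeq2 for each comparison, were used only as an alternative. Gene length, as deposited by the authors, is in bp, and it is not the distance from start to end of the gene on the chromosome. The coordinates in the table overlap those of GRCm38 (GENCODE M21) for 99.8% of 34490 matched gene IDs, and are given as such.

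Of the 35275 rows, some share a symbol (54 symbols), none of them a member. Another 24 columns hold single samples under animal numbers that the labels do not tie to genotypes. They were not used in any step. The planned test on single samples, the replicate block and leave-one-out were therefore not run. The read depth of the libraries was not computed, and its effect on precision was not examined. Columns of the authors' own comparisons (fold changes, p-values) were not used.

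Log2 ratios were taken after adding 1 to each group FPKM, over genes with a mean of at least 1 FPKM in the groups compared, and genes past 2-fold were counted. A FPKM depends on the other transcripts of the same library, so abundant genes lower the values of the rest. Alternatives were a pseudocount of 0.1, no minimum, thresholds of 1.5-fold and 3-fold, ratios centred on the median of all genes, on 5 RT-qPCR reference genes or within 20 classes of gene length, and protein-coding genes only. FPKM rescaled to equal sums and the scaled mean counts were added after seeing the data. Promoter sequences are from RefSeq (GRCm38.p6), and CArG boxes were found by matching letters.

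The members and lists were chosen with earlier results of these data known. The named genes are all members, Poldip2, and up to 3 (cell types: 2) genes of each other list with the largest medial log2 ratio. Named besides these are genes of the family shares, genes that overlap members, Kdr, Klf4 and Cd74. Computations used pandas 2.3.3 and numpy 2.4.6 under Python 3.11.15, drawings matplotlib 3.10.9, and the ratios and centring were tested on simulated data.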

Additional observations from a re-analysis of the deposited data

How the results depend on the processing

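No paired analysis was possible because the columns of single samples carry no number that the labels tie to a group, and for the same reason no replicate could be left out. The number of members past 2-fold in the medial layer, 27, was between 27 and 31 under every alternative that kept that threshold, with the highest count when ratios were centred on the 5 RT-qPCR reference genes. Past 1.5-fold there were 30 and past 3-fold 21. That scaling moved the members' medial median from 1.90 to 2.54. In the endothelial layer, 8 members passed a threshold of 1.5-fold and 3 a threshold of 3-fold, against 5 past 2-fold. Over 6 other ways of scaling, 26 of the 27 members called in the medial layer stayed past 2-fold in all. Srf passed 2-fold when centred on all genes or on the reference genes, with equal FPKM sums and with scaled mean counts. No called member changed direction.

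The share of all genes past 2-fold in the medial layer, 7.22% higher and 14.3% lower, moved to 21.3% and 5.83% with the reference genes, to 9.50% and 9.12% within length classes, to 9.62% and 11.6% on the median of all genes and to 13.4% and 15.1% with scaled mean counts. Between layers of controls, 20.2% and 12.1% became 11.4% and 22.6% with the reference genes, 17.8% and 13.9% on the median of all genes, 18.9% and 20.4% with equal sums and 19.0% and 25.1% with scaled mean counts. Between layers of Poldip2-/- mice, 14.1% and 13.3% became 17.2% and 10.3% with the reference genes. The cause of these shifts was not tested. Centring on the reference genes moved the median of all genes in the medial layer from -0.17 to 0.47.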
